A study of Homo sapiens with 6 samples.

Results

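Messenger RNA was sequenced from SUM159, a human cell line of triple-negative breast cancer, in 3 libraries labelled control (DAPK3 wild type) and 3 labelled DAPK3 knockout (KO). All 3 KO libraries came from knockout line number 3, and every library was grown alike, in F-12 medium that held 5% serum, hydrocortisone at 1 µg/mL, insulin at 5 µg/mL and HEPES at 10 mM. The labels give no treatment or time, do not say where in DAPK3 the knockout lies, and do not tell whether libraries with one label were grown as separate cultures. Described here are 2 sets of 3 libraries chosen from all 6 by their own DAPK3 RNA: above 20 CPM (counts scaled to a common library total) in control R1, control R3 and KO R2 (the RNA-high set), and below 15 CPM in control R2, KO R1 and KO R3 (the RNA-low set). Each set therefore holds libraries of both labels, 2 control and 1 KO in the RNA-high set and 1 control and 2 KO in the RNA-low set, and neither set is a genotype.

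DAPK3, also called ZIP kinase, belongs to the death-associated protein kinases, which act on serine and threonine, and phosphorylates the regulatory light chain of myosin and so acts on contraction of the actin cytoskeleton. Desmoplakin, the product of DSP, links desmosomes, the junctions that hold epithelial cells together, to keratin filaments. Fibronectin, the product of FN1, is a secreted matrix glycoprotein that cells bind through integrins and a textbook marker of the mesenchymal state. Basal-like breast cancer cells can express genes of both states.

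DAPK3 (ENSG00000167657, chromosome 19, 3958453 to 3971123, minus strand, GRCh38) stood at 26.0 CPM of the column total in control R1, 25.9 in control R3 and 27.0 in KO R2. It stood at 10.6 CPM in control R2, 13.2 in KO R1 and 11.2 in KO R3. These levels rest on 440 to 536 expected counts in the RNA-high libraries and 219 to 257 in the RNA-low libraries. The value nearest the limit of 20 from above was 25.9 CPM, and the value nearest the limit of 15 from below was 13.2 CPM. The libraries labelled control R2 and KO R2 thus carried DAPK3 RNA at the level of libraries with the other label, and DAPK3 RNA was present in all 3 libraries labelled KO. Because this RNA chose the sets, the differences that follow are given as descriptions, with no test.

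Library totals ran from 16312184 to 22970823 expected counts, and scaling factors for composition (TMM) from 0.991 to 1.015. The defining epithelial markers EPCAM and CDH1 were at or near 0 in all 6 libraries, with at most 0.0489 and 0.0503 CPM, while the keratins KRT8 and KRT18 and the mesenchymal marker VIM were present in all. PGR, the progesterone receptor, was at 0 throughout. Mitochondrial transcripts summed to 69060 CPM in control R3 and to 41500 to 53850 CPM in the other 5 libraries, so that this share marked 1 library and not a set.

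Below, CPM is scaled with the TMM factors, differences are in log2 of CPM with a prior count of 2, and RNA-high minus RNA-low. A gene is called separated when every library of one set lay at least 2-fold above every library of the other. Of 14613 genes that passed a filter on low counts, 662 were separated with the RNA-high set above (4.53% of genes tested) and 261 with the RNA-low set above (1.79%). The sets did not overlap for 6360 genes (43.5%), 3251 higher in the RNA-high set and 3109 higher in the RNA-low set. DAPK3 itself differed by 1.20 and just missed the 2-fold gap (gap of 0.99 in log2). The median difference was 2.79 among genes separated upward in the RNA-high set and −2.25 among those separated upward in the RNA-low set, against a median SD within a set of 0.28 and 0.31 over the separated genes. Over all genes the median difference was 0.003 and the median absolute difference 0.321.

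The larger the gap asked for, the more one-sided the division became. At a gap of at least 8-fold, 164 genes were higher in the RNA-high set and 19 in the RNA-low set. At 64-fold the counts were 16 and 0. Much of this was RNA present in one set and nearly missing in the other: 381 of the 662 genes (57.6%) had a mean under 1 CPM in the RNA-low set, and 120 of the 261 (46%) a mean under 1 CPM in the RNA-high set. The 662 genes took 2.80% to 2.95% of all CPM in the RNA-high libraries and 0.54% to 0.609% in the RNA-low libraries, and the 261 genes took 0.145% to 0.16% and 0.665% to 0.749%.

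**Figure D1:**
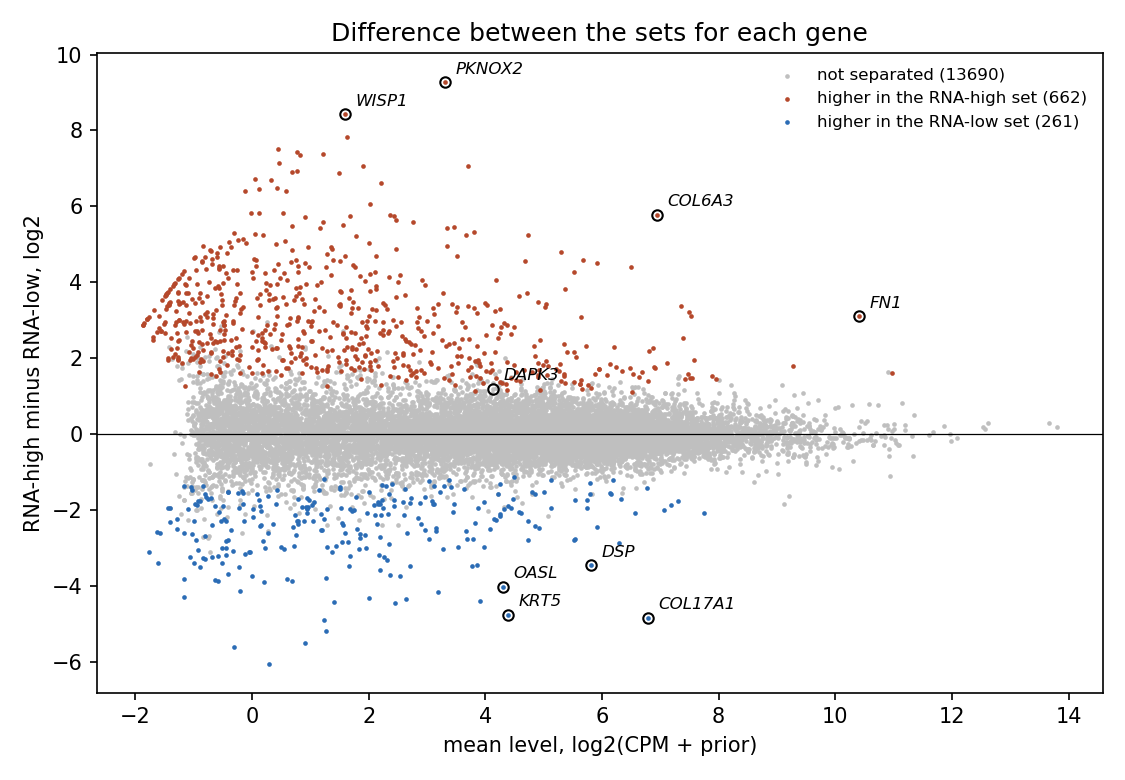
Each point is 1 of 14613 genes: the mean level over both sets in log2 CPM (horizontal) against the RNA-high minus RNA-low difference in log2 (vertical). The 662 genes separated upward reach 9.28 for PKNOX2, the 261 separated downward reach −6.05 for FLJ26245, and DAPK3 lies at the edge of the unseparated genes at 1.20.

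DSP was the opposite of DAPK3 in every library. It stood at 16.8 CPM in control R1, 17.1 in control R3 and 16.8 in KO R2, and at 190 CPM in control R2, 185 in KO R1 and 186 in KO R3 (difference −3.46). Within each set its libraries were nearly equal, whichever label they carried. FN1 ran the other way, at 3904, 4288 and 3834 CPM in control R1, control R3 and KO R2 and at 421, 462 and 510 CPM in control R2, KO R1 and KO R3 (difference 3.11). No library of one set came near the other set for either gene.

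**Figure D2:**
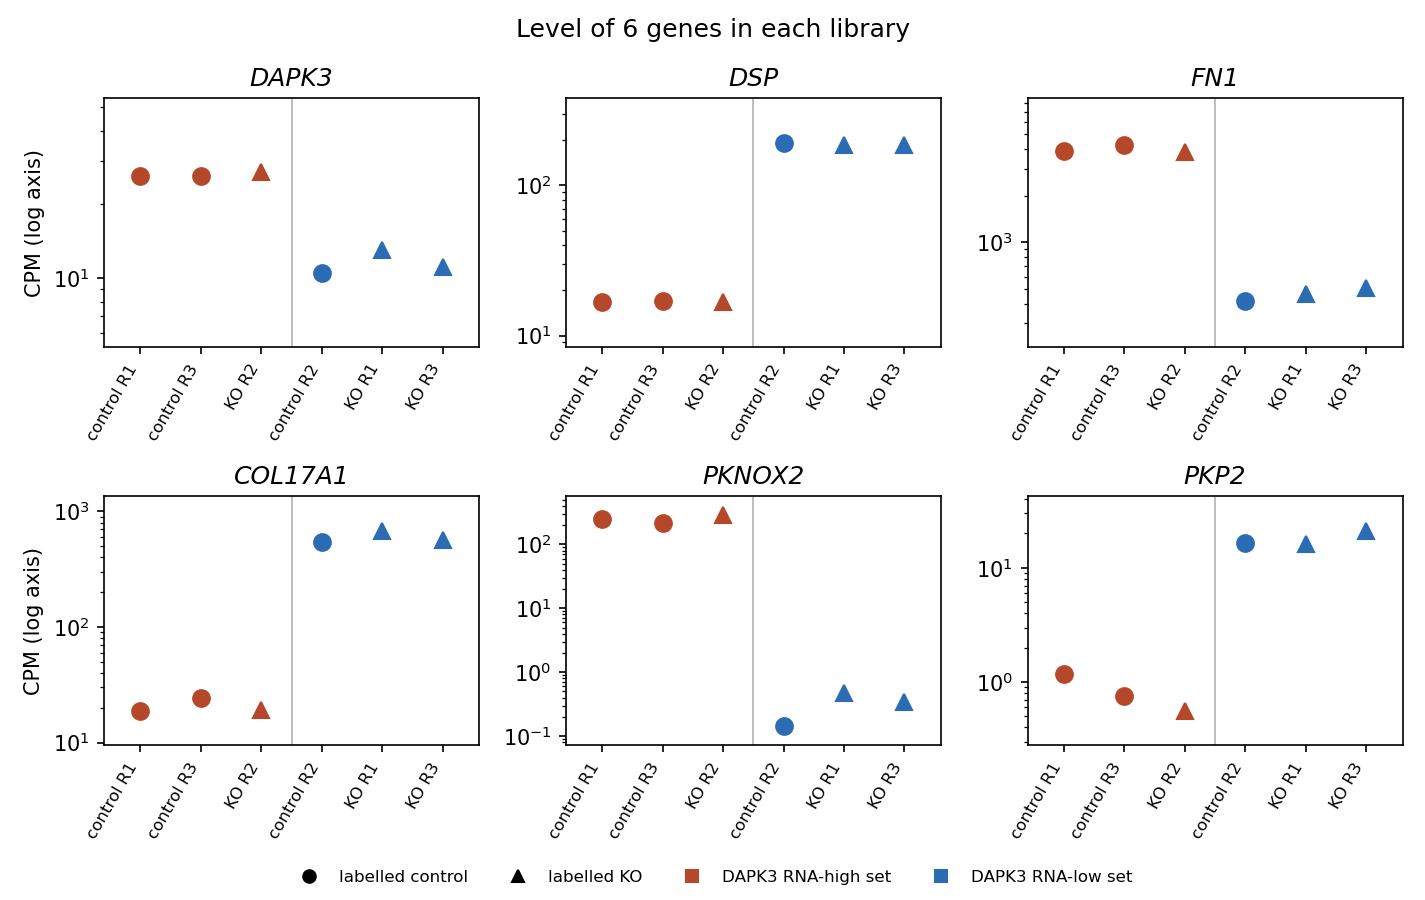
CPM on a log axis for 6 genes, 1 panel each, in the 6 libraries; circles are labelled control, triangles labelled KO, and the vertical line divides the RNA-high set (left) from the RNA-low set (right). In each panel the triangle of KO R2 lies with the circles of control R1 and R3, and the circle of control R2 lies with the triangles of KO R1 and R3; the gap is smallest for DAPK3 and widest for PKNOX2.

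Several junction and keratin genes were higher in the RNA-low set. PKP2, plakophilin 2 of the desmosome plaque, stood at 1.17, 0.755 and 0.557 CPM in control R1, control R3 and KO R2 and at 16.4, 16.2 and 21.2 CPM in control R2, KO R1 and KO R3. COL17A1, a collagen of hemidesmosomes, stood at 18.9, 24.2 and 19.2 CPM in the RNA-high libraries and 539, 676 and 569 CPM in the RNA-low libraries, 28.7-fold higher on the set means. Its hemidesmosome partner ITGB4, integrin beta 4, stood at 80.9, 99.8 and 138 CPM against 458, 393 and 481 CPM. ITGA6, the alpha chain that pairs with ITGB4 and is named here after its values were seen, was not separated, at 142 to 199 CPM against 224 to 317 CPM.

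Basal keratins were also higher in the RNA-low set, though less evenly. KRT5 stood at 3.57, 2.57 and 6.62 CPM in the RNA-high libraries, against 123, 48.4 and 220 CPM in control R2, KO R1 and KO R3. KRT14, its usual filament partner, was at most 0.618 CPM in the RNA-high libraries and 5.90 to 11.2 CPM in the RNA-low libraries. KRT17 was at most 4.02 CPM against 29.1 to 60.3 CPM, and KRT6A at most 91.7 CPM against 201 to 431 CPM. KO R1 was the lowest of its set for each of these 4 keratins but stayed above the RNA-high libraries. The keratins share long stretches of sequence, so reads divided among them by estimate leave their single values uncertain. Luminal and basal keratins did not move as one: KRT8 was higher in the RNA-high set (190 to 238 against 89.5 to 139 CPM, not separated) and KRT18 lower (276 to 329 against 421 to 449 CPM, not separated).

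Not every junction gene followed DSP. Of 16 desmosome genes, 9 passed the filter and 2 were separated, DSP and PKP2. Both were higher in the RNA-low set (22.2%, against 1.79% of all genes). The list's median difference was −1.03 against 0 over all genes. JUP, PKP3 and PPL, which encode plaque proteins, did not overlap between the sets but differed by about −1 (−1.03, −1.09 and −1.06). DSG2, the desmosomal cadherin of simple and many other epithelia, stood at 285 to 296 CPM in the RNA-high set and 274 to 289 CPM in the RNA-low set, and the sets overlapped. Desmosomal cadherins of stratified epithelium, DSG1 and DSG3, did not pass the filter. The connexin gene GJB5, whose product forms gap junctions, stood at 1.42, 1.66 and 1.36 CPM in the RNA-high libraries and 17.9, 29.3 and 17.7 CPM in the RNA-low libraries. Of 15 tight junction genes that passed, MARVELD2 and CGNL1 were separated with the RNA-high set above (13.3%, against 4.53% of all genes). With the RNA-low set above there were 0 (against 1.79%). The list's median difference was −0.06, and MARVELD2 was at most 1.03 CPM in any library.

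Matrix glycoprotein genes were among those with the most reads that divided the sets. Of 32 fibronectin and matrix glycoprotein genes, 24 passed and 14 were separated with the RNA-high set above (58.3%, against 4.53% of all genes). The RNA-low set was above for 1 (4.17%, against 1.79%), and the median difference of the listed genes was 1.64. Their summed level was 10430, 11280 and 9689 CPM in control R1, control R3 and KO R2 and 2707, 2408 and 2870 CPM in control R2, KO R1 and KO R3. TGFBI, a TGF-beta-induced adhesion protein, stood at 3621, 4081 and 2928 CPM against 1225, 1075 and 1136 CPM. THBS1, thrombospondin 1, stood at 1163, 1206 and 1095 CPM against 273, 316 and 418 CPM. TNC, tenascin C, stood at 499, 488 and 656 CPM against 54.3, 67.8 and 67.5 CPM. Each of these genes was higher in all 3 RNA-high libraries, KO R2 included.

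Some matrix genes were close to missing in the RNA-low set. NID1, the basement membrane linker nidogen 1, stood at 18.8, 16.3 and 13.9 CPM in the RNA-high libraries and at 0, 0.0531 and 0 CPM in the RNA-low libraries. FBN1, fibrillin 1 of elastic microfibrils, stood at 11.4, 17.4 and 13.8 CPM against 0.430, 0.213 and 0.564 CPM. ELN, elastin, which is laid down on those microfibrils, was the exception: at most 0.403 CPM in the RNA-high set and 1.17 to 3.06 CPM in the RNA-low set.

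Collagens went in both directions. COL6A3, a chain of the filament-forming collagen VI, stood at 753, 1119 and 888 CPM in the RNA-high libraries against 11.6, 23.2 and 16.4 CPM in control R2, KO R1 and KO R3. COL6A2, another chain of the same protein, stood at 20.5, 46.2 and 29.5 CPM against 0.143, 0.159 and 0.174 CPM. COL1A1 stood at 492, 626 and 540 CPM against 63.95, 57.2 and 55.6 CPM, while COL1A2, whose chain pairs with it in collagen I, was at most 0.244 CPM in any library. COL4A2, a chain of basement membrane collagen IV, was higher in the RNA-low set, with 27.9, 30.8 and 27.5 CPM against 211, 199 and 223 CPM. PCOLCE, an enhancer of procollagen processing, was 189-fold higher on the RNA-high mean, at 40.7, 50.7 and 38.6 CPM against 0.239, 0.319 and 0.130 CPM.

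Proteoglycan genes that were separated lay mostly above in the RNA-high set. Of 28, 17 passed and 5 were separated with the RNA-high set above (29.4%, against 4.53% of all genes). With the RNA-low set above there was 1 (5.88%, against 1.79%), and the list's median difference was 0.39. VCAN, versican, stood at 14.7 to 18.4 CPM against 0.521 to 1.53 CPM, and CSPG4, the NG2 proteoglycan, at 37.5 to 50.02 CPM against 5.79 to 9.03 CPM. BGN, biglycan, was the 1 in the other direction, at 0.244 to 0.604 CPM against 3.49 to 4.17 CPM. XYLT1, the enzyme that starts glycosaminoglycan chains on core proteins, stood at 20.6, 25.7 and 21.0 CPM against 0.0478, 0 and 0.0434 CPM.

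The gene with the largest difference of all was PKNOX2 (ENSG00000165495, chromosome 11, 125164687 to 125433389), a homeodomain transcription factor of the TALE class. It stood at 248.5 CPM in control R1, 214 in control R3 and 283 in KO R2, and at 0.143, 0.478 and 0.347 CPM in control R2, KO R1 and KO R3. Its paralog PKNOX1 was present in both sets, at 20.1 to 26.9 and 13.4 to 16.9 CPM. Over lineage transcription factors, 37 of 50 passed and 6 were separated with the RNA-high set above (16.2%, against 4.53% of all genes). The RNA-low set was above for 1 (2.7%, against 1.79%). RUNX2, the master factor of bone formation, stood at 34.3, 25.9 and 42.9 CPM against 3.58, 5.47 and 3.86 CPM, and TCF4, LEF1, TBX3 and PRRX1 were the others above in the RNA-high set. GRHL3, an epithelial factor, stood at 0.302 to 0.680 CPM against 1.52 to 2.87 CPM. TP63, the basal epithelial factor, was higher in the RNA-low set without being separated (35.5 to 50.3 against 79.2 to 112 CPM). The mesenchymal factor ZEB1 was higher in the RNA-high set without being separated (60.9 to 93.5 against 41.0 to 43.4 CPM), as were CDH2 and VIM among the mesenchymal markers.

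Secreted signals and cytoskeletal genes stood among the largest differences in the RNA-high set. WNT5A, a ligand of non-canonical Wnt signalling, stood at 21.7, 27.2 and 18.99 CPM in the RNA-high libraries against 0, 0.159 and 0 CPM. WISP1, a matrix-associated CCN family protein, stood at 54.7, 57.1 and 55.3 CPM against 0.0478, 0.0531 and 0.0868 CPM. LCP1, the actin bundling protein L-plastin known from leukocytes and from many tumour lines, stood at 46.5, 46.2 and 47.4 CPM against 0.143, 0.0531 and 0.130 CPM. KCNQ3, a voltage-gated potassium channel, stood at 26.9, 25.1 and 38.6 CPM against 0.0478, 0.106 and 0.0868 CPM. For such genes the size of the log2 difference (8.43 for WISP1, 7.83 for LCP1) depends on the prior count.

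In the other direction, CX3CL1, the chemokine fractalkine, stood at 0.0977, 0.101 and 0.433 CPM in the RNA-high libraries and 15.6, 8.72 and 14.8 CPM in the RNA-low libraries. CUX2, a homeodomain factor, stood at 0.244, 0.554 and 0.247 CPM against 12.7, 12.01 and 13.4 CPM. SAA1, an acute phase protein, and S100A2, a calcium-binding protein of basal epithelium, were 4.02-fold and 3.69-fold higher on the RNA-low means. The noncoding RNA MIR205HG, host of miR-205, stood at 3.32, 2.62 and 3.59 CPM against 72.1, 52.0 and 87.4 CPM.

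The contractile partners of DAPK3 were examined next, from a list of its family, substrates and related kinases. Of 17 genes, 14 passed and 2 were separated with the RNA-high set above (14.3%, against 4.53% of all genes). The RNA-low set was above for 0 (against 1.79%). MYLK, the calmodulin-dependent myosin light chain kinase, stood at 13.8, 14.4 and 17.9 CPM in the RNA-high libraries and 0.621, 1.22 and 0.781 CPM in the RNA-low libraries. MYL9, a regulatory light chain that such kinases phosphorylate, stood at 2.98, 2.87 and 2.91 CPM against 0.287, 0.319 and 0.478 CPM. The other light chain genes MYL12A and MYL12B differed by −0.14 and −0.07, and ROCK1, a kinase of the same light chains, by 0.15. DAPK1 and DAPK2 did not pass the filter. Over the 6 libraries, log2 levels were set beside those of DAPK3 for genes differing by at least 1 in log2 between the sets. The closest were C5orf42 (Pearson r of 1 after rounding), MYLK (0.999) and CTC-436P18.3 (0.998). With 6 points in 2 clusters these values describe a shared division and no more.

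Cancer-testis genes gave the highest share above in the RNA-high set of any list with at least 9 members that passed. These genes are normally silent outside the germ line and are switched on in many tumours, and most of them lie on the X chromosome in families of similar copies. Of 30 genes in the list, 15 passed and 9 were separated with the RNA-high set above (60%, against 4.53% of all genes). The RNA-low set was above for 0 (against 1.79%), and the list's median difference was 3.71. The list does not hold all genes of this kind. BAGE2 and TPTE on chromosome 21, outside it and named here after their values were seen, were separated with the RNA-low set above. Each differed by at least 2.09 in log2. SPANXB1 stood at 19.4, 18.0 and 15.2 CPM in control R1, control R3 and KO R2 and at 0.0478, 0.106 and 0 CPM in control R2, KO R1 and KO R3. PAGE5 stood at 14.8, 13.4 and 12.6 CPM against 0, 0.0531 and 0.174 CPM. MAGEC2 stood at 14.2, 10.9 and 12.7 CPM against 0.382, 0.266 and 0.478 CPM. The other separated members were GAGE1, MAGEC1, MAGEB2, MAGEA1, PAGE1 and PAGE2. A second group of the same list was expressed in all 6 libraries: MAGEA3 stood at 20.3, 21.8 and 19.97 CPM in the RNA-high set and 14.1, 21.6 and 19.4 CPM in the RNA-low set, and MAGEA6, MAGEA12, MAGEA2 and XAGE1B were not separated either. Members of the MAGEA and GAGE families share reads, so their single values are uncertain.

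The stretches before the start of 3 separated cancer-testis genes and of the unseparated MAGEA3 are printed to set both kinds side by side, 5′ to 3′ on the strand of the gene, with each CG pair in capitals. They are RefSeq sequence on GRCh38.p14, ended where they would run into an exon of GENCODE release 29: PAGE5 at chrX:55220096-55220345 (plus strand), SPANXB1 at chrX:141002344-141002590 (plus), MAGEC2 at chrX:142205291-142205540 (minus) and MAGEA3 at chrX:152698544-152698751 (plus).
PAGE5: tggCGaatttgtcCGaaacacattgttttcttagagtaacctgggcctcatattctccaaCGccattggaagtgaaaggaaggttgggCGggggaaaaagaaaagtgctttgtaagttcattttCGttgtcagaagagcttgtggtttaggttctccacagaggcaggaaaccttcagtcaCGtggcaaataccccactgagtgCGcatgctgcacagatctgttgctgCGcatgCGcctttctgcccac
SPANXB1: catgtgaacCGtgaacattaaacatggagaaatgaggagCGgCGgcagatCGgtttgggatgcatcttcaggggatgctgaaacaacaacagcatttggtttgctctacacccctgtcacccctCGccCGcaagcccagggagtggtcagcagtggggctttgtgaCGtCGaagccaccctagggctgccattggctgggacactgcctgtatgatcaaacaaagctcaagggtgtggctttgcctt
MAGEC2: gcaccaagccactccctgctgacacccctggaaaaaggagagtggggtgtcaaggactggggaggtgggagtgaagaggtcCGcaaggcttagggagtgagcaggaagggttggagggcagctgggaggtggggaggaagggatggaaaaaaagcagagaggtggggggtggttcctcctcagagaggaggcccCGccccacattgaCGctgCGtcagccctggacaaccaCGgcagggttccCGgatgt
MAGEA3: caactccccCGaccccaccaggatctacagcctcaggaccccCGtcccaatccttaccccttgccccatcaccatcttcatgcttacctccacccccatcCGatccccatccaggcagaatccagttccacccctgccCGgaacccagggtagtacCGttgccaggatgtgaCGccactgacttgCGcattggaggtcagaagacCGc
The stretch of PAGE5 held 9 CG pairs in 250 bases, that of SPANXB1 8 in 247, that of MAGEC2 6 in 250 and that of MAGEA3 8 in 208. Over the full 250 bases before each start the counts were 9, 8 and 6 for the separated genes and 15 for MAGEA3. In the 300-base promoter entries, which run 50 bases past the start, 8 of the 9 separated genes had an entry: MAGEB2 held 21 CG pairs and the other 7 held 9 to 14. All 6 unseparated genes had an entry, and their highest counts were 21 for DDX43, 19 for MAGEA3 and MAGEA6, 17 for MAGEA2 and XAGE1B and 15 for MAGEA12. The last 3 had more than 1 entry, and their lowest counts were 13 for MAGEA2, 14 for XAGE1B and 9 for MAGEA12. Over all entries the counts ran from 9 to 21 in the separated and in the unseparated genes alike. The median over 35114 entries was 14. Whether the 2 groups differ in CG pairs was not tested. Among genes of DNA methylation and Polycomb silencing, 35 passed and 1 was separated, with the RNA-high set above (2.86%, against 4.53% of all genes): TET1, which oxidises methylated cytosine, at 2.20, 1.51 and 0.866 CPM against 0.0956, 0.266 and 0.217 CPM.

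Interferon response genes were the list with the highest share above in the RNA-low set, among lists with at least 9 members that passed. Cells make these proteins against viruses, and factors of the STAT and IRF families switch them on through a promoter element, the interferon-stimulated response element, whose core is a repeat of GAAA. Of 38 genes, 36 passed and 10 were separated with the RNA-low set above (27.8%, against 1.79% of all genes). The RNA-high set was above for 2 (5.56%, against 4.53%), and the list's median difference was −0.8. OAS2, a sensor of double-stranded RNA, stood at 1.56, 0.956 and 0.804 CPM in control R1, control R3 and KO R2 and at 36.2, 17.0 and 27.0 CPM in control R2, KO R1 and KO R3. RSAD2, the antiviral enzyme viperin, stood at 0.293, 0.554 and 0.618 CPM against 14.6, 8.18 and 14.9 CPM. OASL stood at 2.79, 4.68 and 8.41 CPM against 97.1, 52.9 and 98.5 CPM. ISG15, a ubiquitin-like modifier, stood at 2.59, 3.57 and 3.46 CPM against 16.5, 16.5 and 17.8 CPM. IFIT1, which binds foreign RNA, stood at 1.17, 1.56 and 2.97 CPM against 19.2, 7.60 and 18.1 CPM. In KO R1, IFIT1, IFIT2 and IFIT3 were lower than in the other RNA-low libraries, and still above every RNA-high library.

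The division did not extend to the whole pathway. IRF9, a transcription factor of the interferon response, overlapped between the sets, as did the interferon targets MX1, BST2 and IFI6. XAF1, an interferon-induced proapoptotic protein, was separated the other way, at 11.2, 8.45 and 22.02 CPM in control R1, control R3 and KO R2 and 0.526, 0.159 and 0.825 CPM in control R2, KO R1 and KO R3. IFI27 was the other, at 2.78 to 3.81 against 0.372 to 0.669 CPM.

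Promoter stretches of 3 of the separated interferon genes are printed to show that repeat, 5′ to 3′ on the plus strand, which is the strand of each gene. The search was for GAAA followed by 2 bases of any kind and GAAA again, on either strand, and matches are in capitals, those on the other strand reading as repeats of TTTC. The sequences are RefSeq on GRCh38.p14, ended where they would run into a GENCODE release 29 exon: ISG15 at chr1:1013247-1013422, IFIT1 at chr10:89392373-89392545 and RSAD2 at chr2:6877527-6877664, the last before the second of its start sites in the table, inside the GENCODE gene (6865806 to 6898239). The entry at its first start site held 0 matches.
ISG15: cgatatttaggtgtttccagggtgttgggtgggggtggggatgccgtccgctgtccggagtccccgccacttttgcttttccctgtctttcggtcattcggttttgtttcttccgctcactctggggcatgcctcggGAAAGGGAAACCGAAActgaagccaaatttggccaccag
IFIT1: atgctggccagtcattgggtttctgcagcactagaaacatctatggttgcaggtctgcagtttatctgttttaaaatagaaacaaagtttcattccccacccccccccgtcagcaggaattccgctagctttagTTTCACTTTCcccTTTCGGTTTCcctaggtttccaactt
RSAD2: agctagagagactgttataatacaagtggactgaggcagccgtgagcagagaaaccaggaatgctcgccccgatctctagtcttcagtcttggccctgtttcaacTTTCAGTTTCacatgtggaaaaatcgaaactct
ISG15 and IFIT1 held 2 matches each, overlapping in ISG15, and RSAD2 held 1. Of the 10 interferon genes separated upward in the RNA-low set, 7 had a promoter entry and 5 of those held a match: ISG15, RSAD2, IFIT1, IFIT3 and IFI44. Of the 24 that were not separated, 19 had an entry and 13 held a match, and of all 35114 promoter entries 1255 (3.57%) did. The motif was thus common in the list as a whole and was not limited to the separated members. XAF1 had 2 entries, neither with a match, and IFI27 had a match.

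Receptors and neuronal adhesion genes also divided the sets. Of 37 G protein-coupled receptor genes that passed, 9 were separated with the RNA-high set above (24.3%, against 4.53% of all genes). The RNA-low set was above for 3 (8.11%, against 1.79%). LPAR1, a receptor for lysophosphatidic acid, stood at 2.83, 3.87 and 2.29 CPM in the RNA-high libraries and at most 0.0531 CPM in the RNA-low libraries, and S1PR1, for sphingosine 1-phosphate, at 1.27, 2.06 and 1.79 CPM against at most 0.0531 CPM. LPAR2, a second lysophosphatidic acid receptor, was separated in the other direction, at 0.371 to 1.61 CPM against 3.58 to 4.15 CPM. The orphan receptor GPRC5C stood at 0.342, 0.302 and 0.247 CPM against 15.9, 14.9 and 12.5 CPM, and its family member GPRC5A was higher in the RNA-high set (17.6 to 33.2 against 5.04 to 6.17 CPM).

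Of 23 axon and synapse adhesion genes that passed, 6 were separated with the RNA-high set above (26.1%, against 4.53% of all genes). The RNA-low set was above for 0 (against 1.79%). NCAM1, the neural cell adhesion molecule, stood at 17.8, 19.4 and 18.7 CPM in the RNA-high libraries against 0.0956, 0 and 0.0868 CPM in control R2, KO R1 and KO R3. CADM3, a synaptic adhesion molecule of the immunoglobulin family, stood at 142, 158 and 150 CPM against 0.908, 1.44 and 0.825 CPM. The antisense gene CADM3-AS1 stood at 3.22, 3.32 and 3.03 CPM against 0, 0.0531 and 0.130 CPM, and without a stated strand setting its reads cannot be told apart from those of CADM3. NRP2, a semaphorin and VEGF co-receptor, stood at 20.5 to 23.4 CPM against 0.691 to 0.868 CPM. Its paralog NRP1 stood at 363 to 386 CPM against 143 to 203 CPM, not separated.

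For 27 genes the RNA-high libraries held counts and all 3 RNA-low libraries held none, and 6 of these had a mean of at least 2 CPM: CTB-61M7.1, PCLO, BEX1, ZNF502, CCDC91 and MSTN, the last named after its values were seen. With 3 counts in the shallowest RNA-low library (0.159 CPM) as the floor, CTB-61M7.1, a long noncoding RNA, was at least 115-fold higher, PCLO, the presynaptic scaffold piccolo, at least 66.8-fold, and BEX1, a small adaptor protein of neural tissue, at least 52.8-fold. The zinc finger genes ZNF502 and ZNF485 were at least 19.2-fold and 11.9-fold higher, and CCDC91, a Golgi-associated protein gene, at least 15.9-fold. In the other direction there were 3 such genes: AL078471.5 at least 10.1-fold higher in the RNA-low set, RP3-512B11.3 at least 5.17-fold and ZBTB32 at least 4.22-fold, against a floor of 0.186 CPM. RP3-512B11.3 (chromosome 6, 7540451 to 7541338, minus strand) lies next to the start of DSP at 7541575 (plus strand), so the starts of both genes are neighbours.

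Stem and surface markers, imprinted genes and enzymes were separated in both directions, against 4.53% (RNA-high set above) and 1.79% (RNA-low set above) of all genes. Of 20 stem and surface markers that passed, 2 were above in the RNA-high set (10%) and 1 in the RNA-low set (5%). ITGB3, integrin beta 3, stood at 77.6, 58.3 and 90.5 CPM in the RNA-high libraries against 3.06, 3.77 and 7.25 CPM. NGFR, a neurotrophin receptor that also marks basal cells, stood at 0.928 to 1.41 CPM against 9.30 to 25.4 CPM. Of 19 imprinted genes that passed, MEST and PLAGL1 were separated with the RNA-high set above (10.5%) and H19 and BLCAP with the RNA-low set above (10.5%). H19, a noncoding RNA expressed from the maternal allele, stood at 5.37, 6.09 and 5.01 CPM against 60.8, 26.1 and 53.0 CPM. Among 18 retinoid, xenobiotic and steroid enzymes that passed, 2 were above in the RNA-high set (11.1%) and 3 in the RNA-low set (16.7%). SULT1E1, which sulphates oestrogens, stood at 24.2, 10.3 and 8.84 CPM against 3.20, 0.744 and 1.65 CPM.

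Several lists had no separated member, against 6.32% of all genes. No member was separated among 46 S phase genes, 77 cytosolic ribosomal protein genes, 34 amino acid and one-carbon genes, 24 housekeeping genes and 13 mitochondrial transcripts. In the shortest lists a count of 0 lies near that share. Of 9 genes of MHC class II and costimulation 0 were separated, while 4 were higher and 4 lower in the RNA-high set without overlap. Over all genes, 43.5% did not overlap between the sets. The S phase median was 0.45, but its centred level was 0.48, 0.32 and −0.19 in control R1, control R3 and KO R2 and 0.07, −0.56 and −0.13 in control R2, KO R1 and KO R3, so the sets overlapped. ACTB, the cytoplasmic actin gene, was lowest in KO R1 and overlapped between the sets. RPS6 came closest among the ribosomal genes, at 1284, 1424 and 1333 CPM against 2756, 3040 and 2859 CPM (difference −1.10, gap of 0.95), while the ribosomal median was −0.11. ZNF genes, at 9 and 4 of 392 (2.3% and 1.02%), lay below the share over all genes in both directions.

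**Figure D3:**
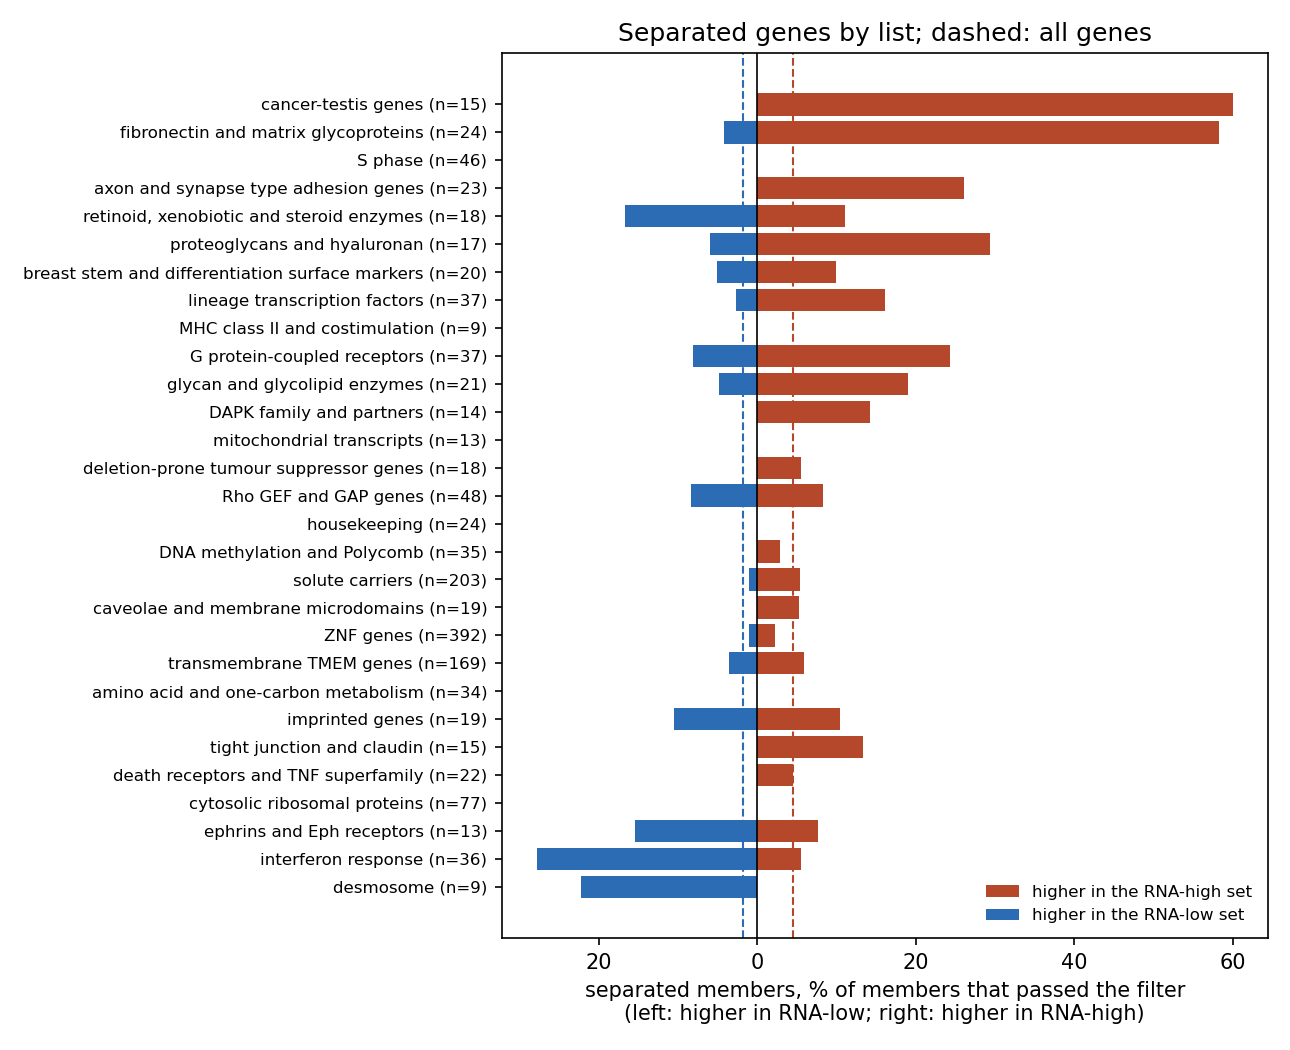
For each gene list with at least 9 members that passed the filter (n in brackets), the bars give the percentage separated with the RNA-high set above (to the right) and with the RNA-low set above (to the left), ordered by the median difference. Dashed lines mark the same percentages over all genes (4.53% and 1.79%); cancer-testis and matrix glycoprotein genes reach 60% and 58.3% on the right, and interferon and desmosome genes 27.8% and 22.2% on the left.

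Markers of other cell types were measured beside these lists. The 6 blood and immune markers summed to 3.96 to 5.195 CPM in the RNA-high set and 0.912 to 1.12 CPM in the RNA-low set, with PTPRC the largest single part in the RNA-high set, where it stood at 2.98, 2.92 and 3.28 CPM against 0.0478, 0.106 and 0 CPM. CD3E was at most 0.0489 CPM in any library. The 6 fibroblast and pericyte markers summed to 557 to 689 CPM against 81.2 to 110 CPM, mostly COL1A1, with PDGFRB also separated, while PDGFRA and DCN overlapped between the sets and LUM was at most 0.293 CPM. The 5 neural markers summed to 122 to 156 CPM against 17.1 to 23.8 CPM, from MAP2 and TUBB3, and SOX10 and STMN2 were at 0 in every library. The sums of endothelial markers overlapped, at 1.36 to 3.07 and 0.912 to 2.34 CPM, as did those of luminal breast markers. Among the luminal markers FOXA1 did not overlap, at 0.866 to 1.41 CPM in the RNA-high set and 1.59 to 2.77 CPM in the RNA-low set. The part of any other cell type in the differences above was not tested. In bulk RNA, fewer cells of a kind and less RNA per cell cannot be told apart.

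Libraries of a set resembled each other across labels. In the 6 pairs within a set, 350 to 921 genes lay at least 2-fold apart (2.4% to 6.3% of genes), and in the 9 pairs between sets 1991 to 2735 (13.6% to 18.7%). The closest pair of all, with 350 genes, was control R2 and KO R3, which carry different labels. KO R2 differed from control R1 in 741 genes and from control R3 in 921, and control R1 and R3 differed from each other in 571. Spearman correlations across genes were 0.984 to 0.994 within sets and 0.944 to 0.959 between them.

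**Figure D4:**
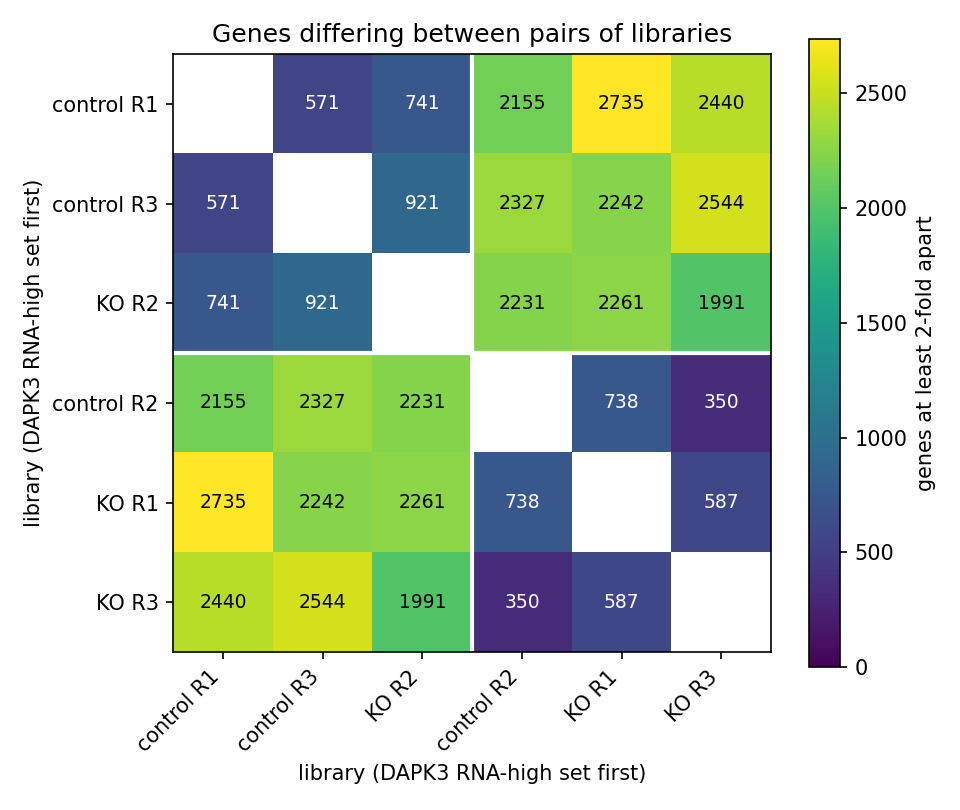
Number of genes at least 2-fold apart for each pair of libraries, with the RNA-high libraries first and white lines between the sets. The 6 within-set pairs hold 350 to 921 genes and the 9 between-set pairs 1991 to 2735, whatever the labels.

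Each set also had its own spread. The counts that follow cover only genes with at least 10 CPM in a library of the set, unlike the pair counts above. KO R2 lay at least 2-fold from both other RNA-high libraries, in the same direction, for 83 such genes. KO R1 lay so from both other RNA-low libraries for 43, control R3 for 42, control R1 for 11, control R2 for 8 and KO R3 for 4. HSPA1B, an inducible heat shock chaperone, stood at 5.13 CPM in KO R2, where control R1 had 35.5 CPM and control R3 36.7. FAM111B, a replication-linked protease gene, stood at 23.9 and 28.8 CPM in those controls and 4.33 CPM in KO R2. In control R3 the cytokine genes IL6 and CXCL8 were low, at 1.31 and 15.8 CPM, against 8.26 and 67.0 CPM in control R1 and 15.5 and 95.1 CPM in KO R2. FAT2, an atypical cadherin, stood at 2.23 CPM in KO R1 and at 11.9 and 7.51 CPM in control R2 and KO R3. METTL7A stood at 11.1 CPM in control R2 against 2.55 and 3.56 CPM in KO R1 and KO R3. The largest distances, for SMIM11B and for the read-through gene BLOC1S5-TXNDC5, fell on genes that share reads with near-identical or overlapping genes and are uncertain.

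Separated genes lay on every chromosome from 1 to 22 and X. The share above in the RNA-high set was 10.5% on X (50 of 478 genes) and 0.814% on chromosome 16 (6 of 737), against 4.53% over all. Neighbouring genes were often separated together: 189 separated genes fell into 83 runs of at least 2 adjacent genes that passed the filter and had the same direction, 19 of them with at least 3. The longest run, of 5, was LINC00632, SPANXB1, LDOC1, MAGEC1 and MAGEC2 at chrX:140709562-142205290, all above in the RNA-high set. A run of 4 on chromosome 2 (chr2:102064544-102711318) held the interleukin receptor genes IL1R1, IL1RL1 and IL18R1 with SLC9A2, also above in the RNA-high set. Runs above in the RNA-low set included IFIT2, IFIT3 and IFIT1 on chromosome 10, COL4A1, COL4A2 and RAB20 on chromosome 13, and KRT14, KRT16 and KRT17 on chromosome 17.

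Small differences also followed long stretches of some chromosomes. In 279 windows of 50 neighbouring genes, the median difference ran from −0.57 to 0.53, with 2 windows at or above 0.5 and 5 at or below −0.5 before rounding. Chromosome 6 changed sign along its length. Its first 7 windows, to 43012342, had medians of −0.2 to −0.55, and its last 7, from 43011143, had medians of 0.24 to 0.5. In the window at chr6:31658298-32969094, 44 of 50 genes were lower in the RNA-high set, and only 1 of the 50 was separated. In the window at chr6:79484991-99521728, 45 of 50 were higher in the RNA-high set and 3 were separated. The lowest window of all, at chr17:6444415-7856099, had 41 of 50 genes lower in the RNA-high set, yet its 3 separated genes, XAF1 among them, were higher there. Chromosome medians were 0.33 for chromosome 8, 0.31 for 2 and 0.25 for 15, and −0.33 for 9, −0.22 for 4 and −0.21 for 16.

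**Figure D5:**
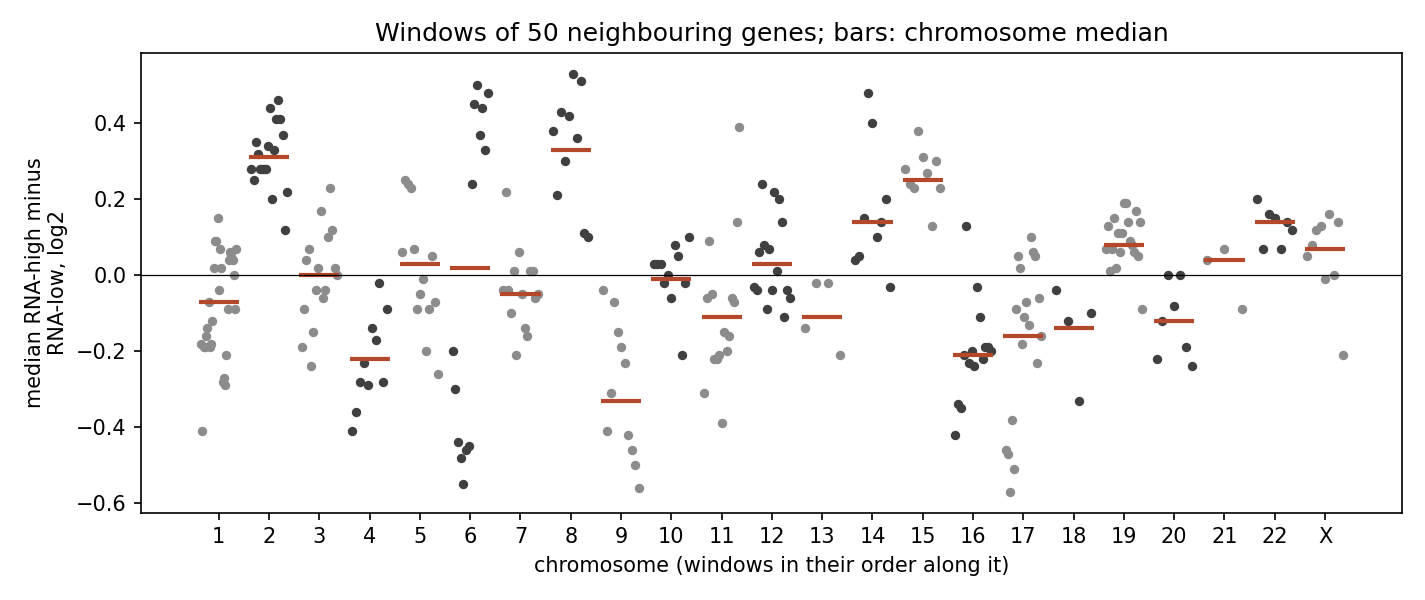
Each dot is the median RNA-high minus RNA-low difference (log2) over a window of 50 neighbouring genes, drawn in order along chromosomes 1 to 22 and X, and the bars are the medians of whole chromosomes. Chromosomes 2, 8 and 15 lie above 0 and chromosomes 4, 9 and 16 mostly below, while chromosome 6 passes from −0.55 to 0.5.

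The labels themselves, which the choice of sets did not use, were compared with edgeR's quasi-likelihood test. Of 14613 genes, 0 (0%) were called between the 3 libraries labelled KO and the 3 labelled control at an adjusted p under 0.05, and the smallest adjusted p was 0.635. Unadjusted, edgeR's p was under 0.05 for 1119 genes (510 with KO above, 609 with KO below). The unadjusted p was under 0.05 for 1157 genes with limma-voom and 1347 with DESeq2. At an adjusted p under 0.05, limma-voom called 0 and DESeq2 called 114. The label groups did not overlap for 2021 genes (13.8%). These values hold for the labels as given. Whether control R2 and KO R2, whose DAPK3 RNA went against their labels, were exchanged was not tested. The genes with the smallest label p in each direction included HSP90AA1, a chaperone (log2 KO minus control −1.48, edgeR adjusted p = 0.63), and KLF5, an epithelial transcription factor (0.76, edgeR adjusted p = 0.63). Both overlapped between the DAPK3 RNA sets. Some genes followed the labels as given: METTL7A stood at 6.24 to 15.7 CPM over the libraries labelled control and 2.04 to 3.56 CPM over those labelled KO (edgeR adjusted p = 0.63). The centred S phase level was likewise 0.07 to 0.48 in control and −0.56 to −0.13 in KO. By the 2-fold gap, 3 genes were separated by label, all higher in control and named here after their values were seen: EDN2, ZNF792 and RP11-316M1.12. EDN2, endothelin 2, ranged from 3.35 to 6.25 CPM over the libraries labelled control and from 0.531 to 1.22 CPM over those labelled KO (edgeR adjusted p = 0.63).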

How the data were processed

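RNA was measured in 6 SUM159 libraries from polyA RNA, 3 per label. Values are RSEM expected counts, as the authors deposited them: reads estimated per gene, which may be fractions. Between 9.42% and 10.6% of values per library were not whole. RSEM, Bowtie2, edgeR and GRCh38 are named in the submitters' processing notes. Versions, annotation and strandedness were not given in the sources used here. Expected counts were rounded to whole numbers. Of 60675 genes, 14613 passed edgeR's filterByExpr and held 99.9% of counts.

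CPM, TMM factors and log2 CPM (prior count 2) were computed with edgeR 4.0.16 in R 4.3.3, and the labels were tested with its quasi-likelihood test and Benjamini-Hochberg adjustment. The DAPK3 RNA sets were not tested, because DAPK3 RNA chose them. With 3 libraries per group and no stated cultures, p-values reflect only how these libraries vary, and that variation may be technical. The members, the 38 gene lists and the rule for named genes were chosen with earlier results of these data known. That rule took the markers, the largest, most abundant and absent-in-one-set separated genes, up to 4 separated genes or the 2 most expressed per list, the genes farthest from their set, the smallest label p-values and the genes most like DAPK3. The steps were tested on simulated counts. Coordinates are from GENCODE release 29 (84 passing genes not found), and promoters from RefSeq on GRCh38.p14, with an entry for 73% of passing genes, too few to compare promoters across all separated genes. Alternatives were other scalings, filters, prior counts, gaps and window sizes, unrounded counts, each library left out, both R2 libraries left out, a replicate block, DESeq2 1.42.0 and limma-voom (limma 3.58.1).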

Additional observations from a re-analysis of the deposited data

How the results depend on the processing

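The count of genes separated with the RNA-high set above (662) was 337 with a 4-fold gap and 699 to 776 with 1 library left out. The count with the RNA-low set above (261) was 557 with a 1.5-fold gap, 82 with a 4-fold gap, 398 without both R2 libraries and 282 to 344 with 1 library left out. These counts move by construction, because a smaller gap or fewer libraries ask less of a gene. With other scalings, another prior count or unrounded counts, 910 to 923 of the 923 genes stayed separated. The 153 separated members of any list were 160 to 178 with 1 library left out. Of 1500 recomputed differences of the 150 named genes, 1450 moved by less than the spread between libraries and 50 moved by more. Among separated named genes 0 differences changed sign, and changes of sign in unseparated genes were not counted. With windows of 25 genes the highest median was 0.7 and the lowest −0.66.

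Between the labels, where edgeR called 0 genes, DESeq2 called 114 (45 higher and 69 lower in KO), and the cause was not tested. Without both R2 libraries edgeR called 4055, 1805 higher and 2250 lower in KO, but those libraries were chosen by their DAPK3 RNA, so this count is no independent evidence. Leaving out 1 library gave 0 calls each time. With the replicate number as a block edgeR called 0 genes, 261 had an unadjusted p under 0.05 and the smallest adjusted p was 0.99. Deviations of same-numbered libraries from their group means had correlations of −0.65, −0.85 and −0.7. Each number holds 1 library of each DAPK3 RNA set, so these follow from the sets and do not show whether a number marks a shared batch, which no label states.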
